A study of Bos taurus with 12 samples.

Results

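Proenkephalin, the granins and the enzymes that process peptides were measured here as 9 genes, PENK, CHGA, CHGB, SCG2, PAM, PTPRN, PCSK1, PCSK2 and CPE. They were taken by gene symbol from the array's annotation, which paired them with 11 of the 24016 probe sets tested. They are 9 of the 9155 genes that the annotation names singly. CHGA and PAM had 2 probe sets each and the other 7 genes had 1. The cells were cultured bovine chromaffin cells from adrenal glands, which make and secrete catecholamines in the adrenal medulla. They received 10 nM interleukin-6 (IL6) for 24 h, 1 nM human interferon alpha (IFNα) for 24 h, 10 µM histamine for 6 h, or no treatment. Each of the 4 groups had 3 arrays, which the submitters call technical repeats, so p-values cover only array-to-array spread. The labels give no time for the untreated cells, and agent and time cannot be told apart between histamine and either cytokine.

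Chromaffin cells store peptides with catecholamines in large dense-core granules and release both together. PENK encodes proenkephalin, the precursor of the enkephalins, which are opioid peptides, and CHGA, CHGB and SCG2 encode granins, acidic proteins that pack the granule core and are themselves cut into peptides. The prohormone convertases encoded by PCSK1 and PCSK2 cut precursors at paired basic residues, the carboxypeptidase encoded by CPE trims the exposed basic residues, and the enzyme encoded by PAM amidates the ends of many peptides. PTPRN encodes IA-2, a protein of the granule membrane. Histamine acts on H1 receptors of these cells and sets off calcium signalling and secretion.

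Values are log2 expression, on which a difference of 1 is a doubling, and they cannot be compared in level between probe sets. A gene was read from its probe set with the higher mean over the 12 arrays. A gene passed the test when limma's adjusted p, taken over all 24016 probe sets, was under 0.05, and it was called when the difference was also at least 1.5-fold. Across probe sets, arrays of the same group correlated between 0.993 and 0.998. The 6 chromaffin markers measured of 10 listed, TH, DBH, PNMT, SLC18A2, SYT1 and STMN2, were each above the lower quartile of the arrays in every group. Their summed linear level was 27383 to 29969 on IL6 arrays and 20579 to 24251 on IFNα arrays. It was 26896 to 27789 on histamine arrays, against 22450 to 24007 on untreated arrays. Such sums weigh the brightest genes most. The mean log2 difference of the 6 markers from untreated cells was -0.22, -0.05 and 0.10 on IL6 repeats 1, 2 and 3. In the same order it was -0.08, -0.15 and 0.25 on IFNα arrays and 0.45, 0.44 and 0.26 on histamine arrays. After histamine 2 of the 6 were called higher, after IL6 1 was called higher and 1 lower, and after IFNα 0. These are 33.3%, 33.3% and 0%, against 6.98%, 2.76% and 3.95% of the 9155 genes. Markers of other cell types also differed between groups. The summed linear level of the 8 adrenal cortex markers was 543 to 562 on IL6 arrays, 486 to 518 on IFNα arrays and 1236 to 1299 on histamine arrays, against 829 to 837 on untreated arrays. For the 7 fibroblast and mural markers it was 9484 to 9990, 8330 to 9284 and 10654 to 10688, in the same order, against 9379 to 9825 in untreated cells. The 5 leukocyte markers summed to 1012 to 1217, 459 to 540 and 657 to 705, against 537 to 565 in untreated cells, with PTPRC below the lower quartile in every group. The 5 endothelial markers summed to 290 to 328, 277 to 292 and 322 to 380, against 385 to 399, with VWF and KDR below the lower quartile in every group. The part of these cells in the results was not tested, and in such bulk samples fewer cells of a type and less RNA per cell cannot be told apart. IL6 repeats 2 and 3 and IFNα repeat 3 stood apart by raised hypoxia and glycolysis genes. The mean of 9 such genes lay 0.92, 1.39 and 0.98 above untreated on them, against -0.02 to 0.30 on the other treated arrays, so results were also computed without these 3 arrays. That leaves IL6 repeat 1 as the only IL6 array, assumed there to vary like the arrays of the other groups.

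Of the 3 agents, only histamine gave changes that were called against untreated cells. SCG2, PAM and PTPRN rose, PCSK1 was higher by slightly less than the fold minimum, and PENK was higher at the very top of the scale. IL6 left PAM higher and CHGB, CHGA and CPE lower, each by less than the fold minimum, and IFNα left CPE lower and PENK higher, also by less than the fold minimum. Of the 9 genes, 8 differed somewhere among the 4 groups by the moderated F test of limma, as did 60.5% of the 9155 named genes. PCSK2 was the exception (limma, F test adjusted p = 0.569).

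**Figure D1:**
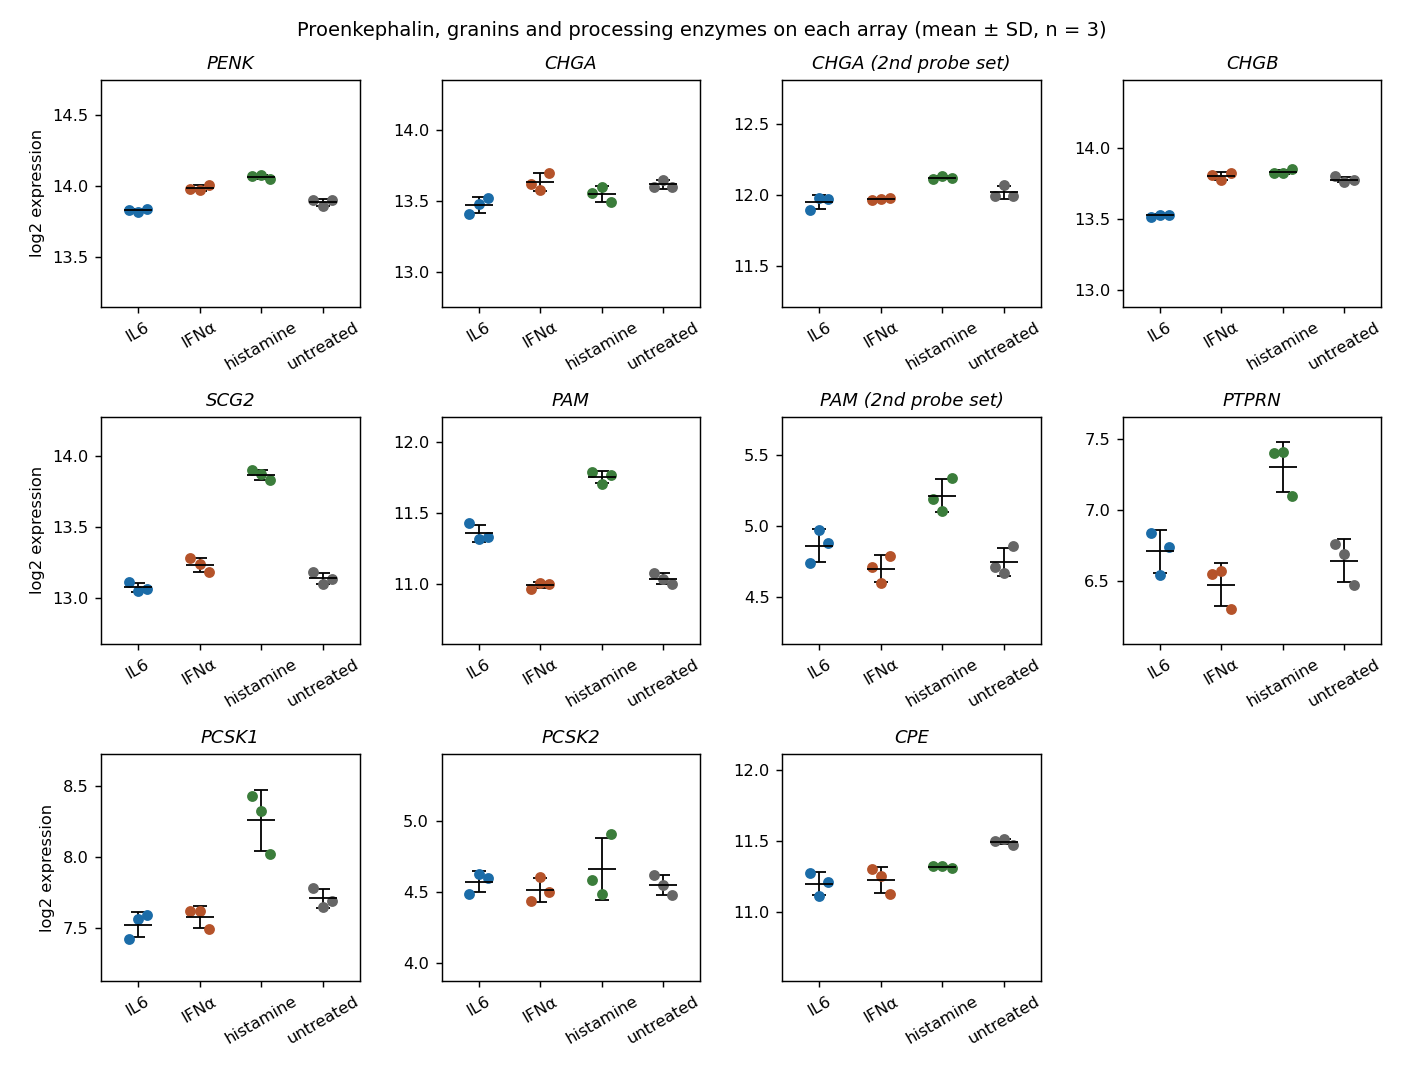
Log2 expression (y axis) of each of the 11 probe sets on every array (points), with the mean and SD of the 3 arrays of each group (bars). Groups run from IL6, IFNα and histamine to untreated cells, and every panel spans the same 1.6 log2 units. SCG2, PAM, PTPRN and PCSK1 stand higher on all 3 histamine arrays than on any other array.

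Among the peptide precursors, PENK read 13.83, 13.82 and 13.84 on the IL6 arrays, 13.98, 13.97 and 14.01 on the IFNα arrays and 14.07, 14.08 and 14.05 on the histamine arrays, against 13.90, 13.86 and 13.90 on the untreated arrays. The 4 groups did not overlap as deposited, with histamine highest, then IFNα, untreated and IL6. PENK was higher than in untreated cells by 0.18 after histamine (SE 0.02; limma, adjusted p = 7.02e-06) and by 0.10 after IFNα (limma, adjusted p = 0.00233). After IL6 the difference was -0.06 and did not pass (limma, adjusted p = 0.0634; 95% confidence interval -0.10 to -0.01 without adjustment). Histamine and IFNα differed by 0.08 (limma, adjusted p = 0.00474), but after cyclic loess the sign turned, to -0.0256 (limma, adjusted p = 0.359), so the order of these 2 groups is not settled. The difference after IFNα did not pass after a further quantile normalization (0.06; limma, adjusted p = 0.358) or without a variance trend (limma, adjusted p = 0.183). On all 3 histamine arrays and on IFNα repeat 3, PENK was itself the highest of all probe sets, and on every array it lay within 0.31 of the highest value. The difference after histamine, 0.16 to 0.21 over the 23 alternatives, may therefore be a lower bound. A small value after the cytokines does not show that the transcript was stable. Whether differences were compressed near the top was not tested.

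CHGB encodes chromogranin B, and its probe set also lay near the top. It read 13.51, 13.53 and 13.53 after IL6, 13.81, 13.77 and 13.82 after IFNα and 13.82, 13.82 and 13.85 after histamine, against 13.80, 13.76 and 13.77 in untreated cells. The IL6 arrays lay below all 9 others, at a difference from untreated of -0.25 (SE 0.02; limma, adjusted p = 1.24e-06), or -16.1% on the linear scale. So near the top, the size of this difference may also be a lower bound, which was not tested. The CHGB difference was also read without the arrays high in hypoxia genes. On IL6 repeat 1 alone, with the 3 arrays high in hypoxia genes set aside, it was -0.27. The IFNα and untreated arrays overlapped (0.02; limma, adjusted p = 0.54). The histamine arrays lay just above the untreated ones (0.05; limma, adjusted p = 0.0694).

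The 2 probe sets of CHGA, which encodes chromogranin A, did not show the same differences. The brighter one averaged 13.47 ± 0.06 after IL6, 13.63 ± 0.06 after IFNα and 13.55 ± 0.06 after histamine, against 13.62 ± 0.03 in untreated cells (SD, n = 3 each). Its IL6 arrays lay below all untreated arrays, at a difference of -0.15 (limma, adjusted p = 0.0125), or -0.21 on IL6 repeat 1 alone. It did not pass without untreated repeat 2 (limma, adjusted p = 0.0582), after median centring or without a variance trend (limma, adjusted p = 0.061 and 0.0964). Its difference after histamine was -0.07 (limma, adjusted p = 0.2). The other probe set, about 2 log2 units below the top of the arrays, averaged 12.12 ± 0.01 after histamine, against 12.02 ± 0.05 in untreated cells. There histamine was higher by 0.10 (limma, adjusted p = 0.0241) and IL6 differed by -0.07 (limma, adjusted p = 0.158). The difference after histamine thus had opposite signs in the 2 CHGA probe sets, and only the dimmer one passed.

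SCG2 encodes secretogranin II, the precursor of the peptide secretoneurin. It read 13.11, 13.05 and 13.06 after IL6, 13.28, 13.24 and 13.18 after IFNα and 13.90, 13.87 and 13.83 after histamine, against 13.18, 13.10 and 13.13 in untreated cells. All 3 histamine arrays lay above the other 9. SCG2 rose 1.66-fold after histamine (log2 difference 0.73, SE 0.03; limma, adjusted p = 7.93e-10). On the histamine arrays it came within 0.17 to 0.22 of the highest value, so this rise too may be a lower bound, which was not tested. IFNα and untreated arrays touched at 13.18, with a difference of 0.10 (limma, adjusted p = 0.0455) that passed in 12 of 23 alternatives. Without single arrays its adjusted p from limma was 0.0135 to 0.175, the highest without untreated repeat 2. After IL6 it was -0.06 (limma, adjusted p = 0.181).

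**Figure D2:**
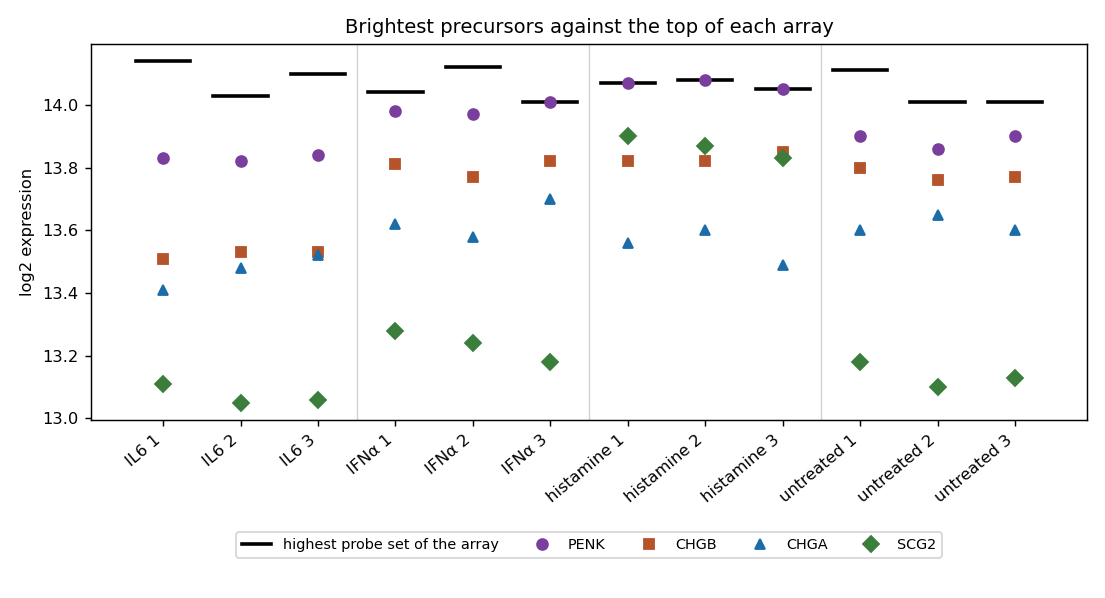
Log2 expression (y axis) of PENK, CHGB, CHGA (brighter probe set) and SCG2 on each of the 12 arrays (x axis), with the highest value of each array as a black bar. PENK coincides with the bar on the 3 histamine arrays and on IFNα repeat 3, and SCG2 comes close to it only on the histamine arrays.

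Of the processing enzymes, PAM changed most. It read 11.43, 11.32 and 11.33 after IL6, 10.97, 11.01 and 11.00 after IFNα and 11.79, 11.71 and 11.77 after histamine, against 11.08, 11.04 and 11.00 in untreated cells. The histamine arrays lay above all others, the IL6 arrays came next, and the IFNα and untreated arrays overlapped. PAM rose 1.64-fold after histamine (log2 difference 0.72, SE 0.04; limma, adjusted p = 9.66e-09). After IL6 it was 1.25-fold higher (log2 difference 0.32, SE 0.04; limma, adjusted p = 4.97e-05), below the fold minimum, and 0.39 higher on IL6 repeat 1 alone, without the 3 arrays with raised hypoxia genes. After IFNα the difference was -0.05 (limma, adjusted p = 0.499; 95% confidence interval -0.13 to 0.04). The second PAM probe set was dim, below the lower quartile on all arrays except those of histamine. It averaged 5.21 ± 0.12 after histamine, against 4.75 ± 0.10 in untreated cells (log2 difference 0.47; limma, adjusted p = 0.00077), and 4.86 ± 0.12 after IL6 (log2 difference 0.12; limma, adjusted p = 0.391).

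PCSK1, the convertase PC1/3, read 7.42, 7.56 and 7.59 after IL6, 7.62, 7.62 and 7.49 after IFNα and 8.43, 8.32 and 8.02 after histamine, against 7.78, 7.65 and 7.69 in untreated cells. The histamine arrays lay above the other 9, with the widest spread of any group for this gene. The difference after histamine was 0.55 (1.46-fold, SE 0.09; limma, adjusted p = 0.000324), just under the fold minimum. It reached the minimum without histamine repeat 3 (0.67), without untreated repeat 1 (0.59) or with array weights (0.60). The IL6 and IFNα arrays lay below all untreated arrays, but neither difference passed (-0.18 and -0.13; limma, adjusted p = 0.196 and 0.415). PCSK2, the convertase PC2, was below the lower quartile on all 12 arrays, between 4.44 and 4.91. Its largest difference from untreated was 0.11, after histamine, with a 95% confidence interval of -0.09 to 0.32. At this level a change in PCSK2 may not have been detectable.

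CPE was the one gene of the 9 that was lower than in untreated cells after all 3 agents. It read 11.27, 11.11 and 11.21 after IL6, 11.30, 11.25 and 11.12 after IFNα and 11.32, 11.32 and 11.31 after histamine, against 11.50, 11.51 and 11.47 in untreated cells. No treated array reached the lowest untreated array. The differences were -0.30, -0.27 and -0.18 for IL6, IFNα and histamine (limma, adjusted p = 0.000591, 0.000937 and 0.0103), and none reached 1.5-fold. Without the 3 arrays with raised hypoxia genes they were -0.22, -0.22 and -0.18 (limma, adjusted p = 0.00267, 0.000286 and 0.000275), the first from the single IL6 array left. The 3 comparisons share the untreated arrays.

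PTPRN, the granule membrane protein IA-2, read 6.84, 6.54 and 6.74 after IL6, 6.55, 6.57 and 6.30 after IFNα and 7.40, 7.41 and 7.10 after histamine, against 6.76, 6.69 and 6.47 in untreated cells. Only the histamine arrays separated from the untreated ones. PTPRN rose 1.58-fold after histamine (log2 difference 0.66, SE 0.11; limma, adjusted p = 0.000344). The difference was 0.58 without untreated repeat 3, just under the fold minimum. After IL6 and IFNα it was 0.07 and -0.17 (limma, adjusted p = 0.728 and 0.385).

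**Figure D3:**
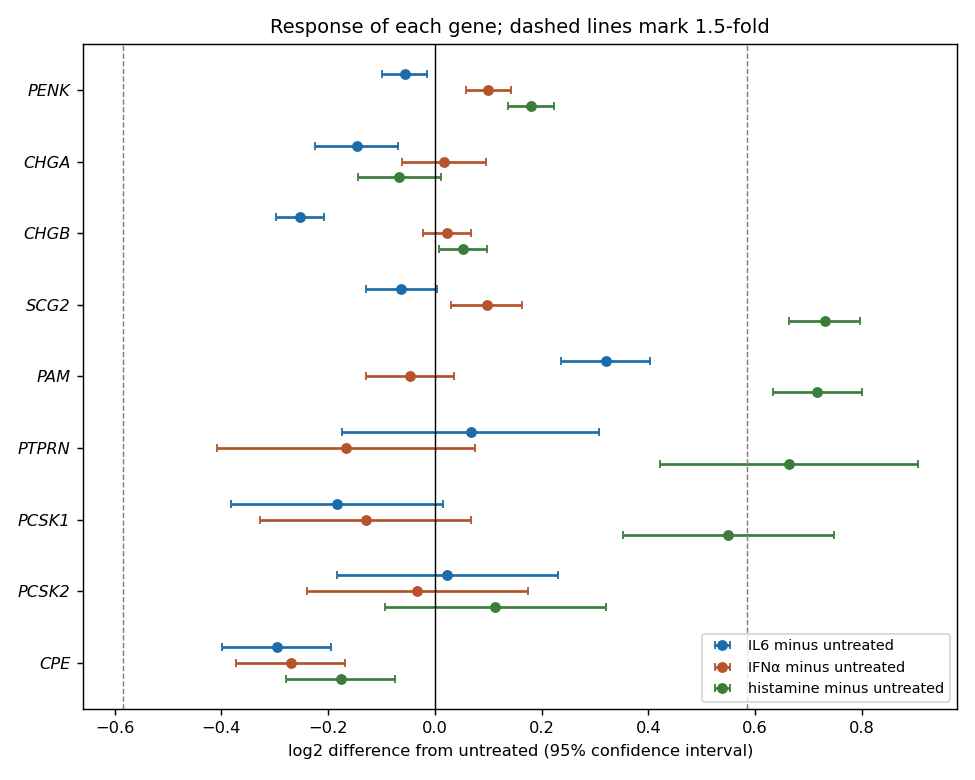
Log2 difference from untreated cells (x axis, points) with its unadjusted 95% confidence interval (bars) for each of the 9 genes after IL6, IFNα and histamine, 3 arrays per group, and dashed lines at 1.5-fold. SCG2, PAM and PTPRN lie beyond the line after histamine only, and CPE lies left of 0 after all 3 agents.

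Counted by comparison, 3 of the 9 genes were called higher after histamine and none lower, against 3.77% of the 9155 named genes, each read from its brightest probe set, called higher. The test was passed by 6 of them, 5 higher and CPE lower, against 40.9% of named genes, and 7 had histamine arrays that did not overlap the untreated ones, against 53.4%. The median difference of the 9 genes was 0.18, and that of all named genes was 0.01. After IL6 limma called 0 of 9, against 2.76% of named genes, while 5 had an unadjusted p under 0.05. The test was passed by 4, PAM higher and CHGA, CHGB and CPE lower, against 21.3% of named genes. Arrays did not overlap for 6 of 9, against 38.6%, and the median difference was -0.06, against -0.01 over all named genes. After IFNα limma called 0 of 9, against 3.95%, and 3 had an unadjusted p under 0.05. The same 3 passed the test, PENK and CPE and, in 12 of 23 alternatives only, SCG2, against 22.1%, and arrays did not overlap for 3 of 9, against 39.7%. The median difference was -0.03, against -0.02 over all named genes. The 9 genes and the gene lists were chosen with earlier results of these data known. Their shares therefore describe them and do not test them as sets.

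The agents were also set against each other. Between the cytokines at 24 h limma called none of the 9 genes, against 6.96% of named genes, and 5 had an unadjusted p under 0.05. All 5 passed the test, against 35.1%. IL6 was higher than IFNα for PAM (0.37; limma, adjusted p = 4.33e-06). It was lower for CHGB (-0.28), CHGA (-0.16), SCG2 (-0.16) and PENK (-0.16; limma, adjusted p 1.2e-07 to 0.00346 for these 4). Against IL6, histamine was called higher for SCG2 (0.79), PCSK1 (0.73) and PTPRN (0.60), 3 of 9, against 4.28% of named genes (limma, adjusted p = 3.28e-10, 2.66e-05 and 0.00082). The PTPRN call was lost under 6 of 23 alternatives, with differences down to 0.46 (limma, adjusted p = 0.0238), among them leaving out IL6 repeat 2 (0.51), histamine repeat 1 (0.55) or histamine repeat 2 (0.54). PAM was higher after histamine than after IL6 by 0.40 (limma, adjusted p = 2.43e-06), below the fold minimum, and 6 of 9 passed the test, against 40.9%. Against IFNα, histamine was called higher for PTPRN (0.83), PAM (0.76), PCSK1 (0.68) and SCG2 (0.63), 4 of 9, against 6.06% (limma, adjusted p 6.18e-10 to 3.31e-05), and 5 of 9 passed, against 46.9%. CPE differed little between agents, by at most 0.12, which did not pass (limma, adjusted p = 0.0685; 95% confidence interval 0.02 to 0.22 without adjustment, histamine minus IL6). That difference passed in 4 of 23 alternatives, and all CPE values after histamine lay above those after IL6 and IFNα.

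Of 34 other granule and processing genes listed, 23 had a named probe set. After IL6 limma called none of them (12 had an unadjusted p under 0.05), after IFNα 1 rose, and after histamine 1 fell, or 0%, 4.35% and 4.35%, against 2.76%, 3.95% and 6.98% of the 9155 named genes. RNPEP, an aminopeptidase that trims basic residues from peptide ends, rose 1.69-fold after IFNα, reading 8.85, 8.88 and 8.94 there against 8.12, 8.16 and 8.12 in untreated cells (limma, adjusted p = 1.5e-05). ICA1, an islet cell autoantigen found on secretory membranes, had a log2 difference of -0.71 after histamine (limma, adjusted p = 1.22e-07). PCSK1N, SCG5 and SCG3 were chosen for mention after their values were seen. PCSK1N, which encodes proSAAS, an inhibitor of PC1/3, differed by -0.47 after histamine (limma, adjusted p = 0.000877). SCG5, which encodes 7B2, the chaperone of PC2, differed by -0.22 after histamine (limma, adjusted p = 2.04e-05). SCG3, a granin that binds chromogranin A, differed by 0.02 after histamine and by -0.21 after IL6 (limma, adjusted p = 0.756 and 0.000346). The list's median difference was -0.06 after IL6, -0.03 after IFNα and 0.01 after histamine, against -0.01, -0.02 and 0.01 over all named genes. Without the 3 arrays with raised hypoxia genes, CYB561, an electron carrier of the granule membrane chosen after its values were seen, differed by -0.74 after IL6, in place of -0.14. That value is IL6 repeat 1 alone, which read 11.80, against 12.50 and 12.89 on the repeats left out, so the arm had no spread of its own.

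Among other peptide precursors, TAC1, VIP, STC1, GAL, NPPA, SST and NTS rose after histamine, and GAL, NPPA, VIP and PTHLH rose after IL6. Of 32 listed, 19 had a named probe set. After histamine 7 rose and none fell, after IL6 4 rose and 1 fell, and after IFNα limma called none, while 7 had an unadjusted p under 0.05. These are 36.8%, 26.3% and 0% of the 19, against 6.98%, 2.76% and 3.95% of named genes. This list was chosen with earlier results of these data known, so these shares do not test it as a set. The median differences were 0.11 after histamine, 0.15 after IL6 and 0.01 after IFNα, against 0.01, -0.01 and -0.02 over all named genes. TAC1, the precursor of substance P, read 9.07, 8.88 and 9.10 after histamine, against 4.33, 4.27 and 4.19 in untreated cells (log2 difference 4.75; limma, adjusted p = 8.39e-14). VIP, which encodes vasoactive intestinal peptide, differed by 4.05 after histamine and by 0.80 after IL6 (limma, adjusted p = 5.03e-13 and 1.75e-05). Untreated arrays were below the lower quartile for both genes and for PTHLH, so their rises may be lower bounds, which was not tested. GAL, the galanin precursor, rose by 1.64 after histamine and 1.45 after IL6, and NPPA, the atrial natriuretic peptide precursor, by 1.61 and 1.06. SST and NTS, the precursors of somatostatin and neurotensin, rose by 1.04 and 0.81 after histamine. PTHLH, which encodes parathyroid hormone-related protein, rose by 2.37 after IL6, and NXPH1, a neurexin ligand, fell by 0.79. STC1, which encodes stanniocalcin 1, rose by 3.05 after histamine (SE 0.77), and it read 5.37, 7.80 and 8.96 on IL6 repeats 1, 2 and 3, following the arrays with raised hypoxia genes. POMC, the precursor of corticotropin and beta-endorphin, read 13.51 to 13.61 on all 12 arrays, also near the top of the scale. On the 9 arrays without raised hypoxia genes, NTS and ADM differed by 0.68 and -0.71 on the single IL6 array left. ADM is itself among the hypoxia and glycolysis genes by which the other arrays were set apart. Its value there is therefore not independent of leaving them out.

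**Figure D4:**
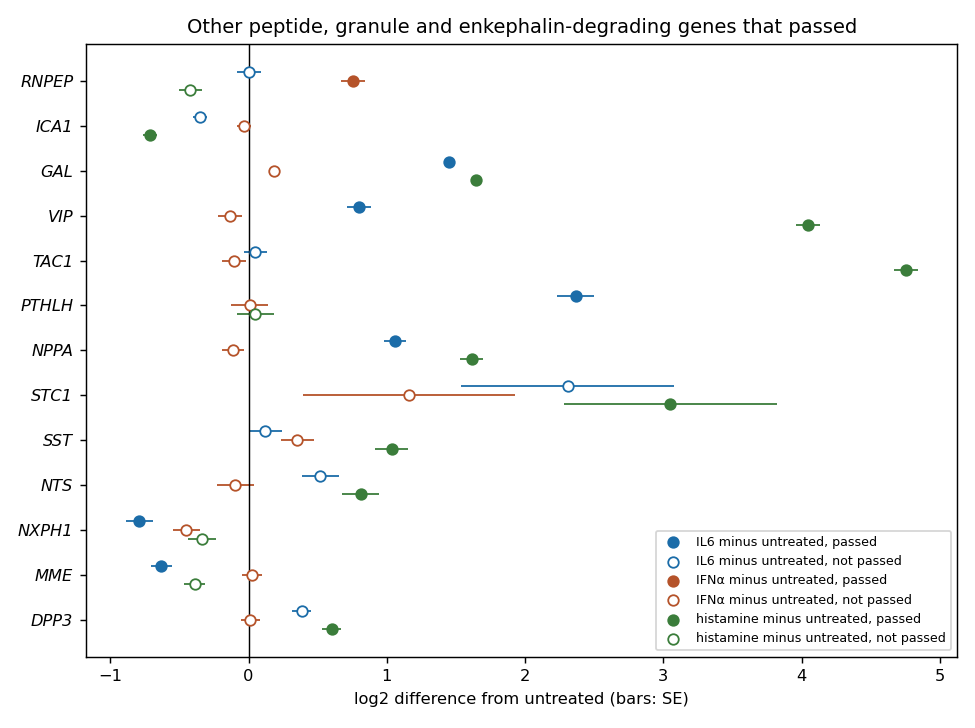
Log2 difference from untreated cells (x axis, bars are SE from limma) for the 13 other granule, peptide and enkephalin-degrading genes called after at least 1 agent. Filled points passed the adjusted p and the 1.5-fold minimum and open points did not. TAC1 and VIP lie furthest right after histamine, and RNPEP is the only filled point for IFNα.

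Of 15 opioid receptors and enkephalin-degrading enzymes listed, 10 had a named probe set. MME, which encodes neprilysin, an enzyme that breaks down enkephalins, fell after IL6 to 5.64, 5.81 and 5.73, against 6.28, 6.36 and 6.43 in untreated cells (log2 difference -0.63; limma, adjusted p = 3.81e-05). DPP3, a dipeptidyl peptidase that cleaves enkephalins, rose 1.52-fold after histamine (limma, adjusted p = 1.3e-05). OPRM1, the mu opioid receptor, was dim and was not called against untreated cells, at -0.44, -0.29 and 0.35 after IL6, IFNα and histamine. Between agents, OPRM1 was called higher after histamine than after IL6 (0.79; limma, adjusted p = 0.0132) and IFNα (0.63; limma, adjusted p = 0.0366). With IFNα repeat 3 and IL6 repeats 2 and 3 set aside, histamine minus IFNα was 0.49 and did not pass (limma, adjusted p = 0.13). Histamine minus IL6 was then 0.82, from the single IL6 array left. After IFNα limma called none of the 10, while 3 had an unadjusted p under 0.05. The 1 call after IL6, the 0 after IFNα and the 1 after histamine are 10%, 0% and 10% of this list, against 2.76%, 3.95% and 6.98% of named genes, and each call is a single gene. The list's median differences were -0.01, 0.02 and 0.05 after IL6, IFNα and histamine. On the 9 arrays without raised hypoxia genes ECE2, an endothelin-converting enzyme chosen after its values were seen, differed by -0.60 on the single IL6 array left, in place of -0.51 on all 3.

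For each of SCG2, PAM and PTPRN, the 3 genes whose values ran most alike over the 12 arrays were sought among 1697 other named genes whose group means spanned at least 1.5-fold. For SCG2 they were CITED1, a transcriptional co-activator, FNDC3A and NSF, the ATPase that takes SNARE complexes apart (Pearson r = 0.99 each). For PAM they were FAM171A1, CREM, the cAMP-responsive element modulator, and DDX39A, an RNA helicase (r from 0.99 to 1.00). CREM had 6 probe sets, which disagreed, with differences after histamine between -0.12 and 2.54. For PTPRN they were SLC16A1, a monocarboxylate transporter, ATP1B3, a subunit of the sodium pump, and FNDC3B (r = 0.95, 0.94 and 0.94). ATP1B3 had 2 probe sets, with differences after histamine of 0.29 and 0.73. These correlations describe 12 arrays that share 4 groups.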

How the data were processed

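Biotin-labelled total RNA was measured on Affymetrix bovine expression arrays of 1 colour, per the labels' protocols. The deposited values were log2 expression of 24128 probe sets, made by the authors with RMA, per the submitters' processing notes, its version and parameters not given in the sources used here. RMA removes background, makes the arrays' distributions alike and condenses the probes of a set, and it compresses differences of dim transcripts. The highest value of an array was 14.01 to 14.14. The number of arrays limits the precision.

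Groups came from the sample titles. Of the probe sets, 112 controls were left out, and the platform annotation gave 1 symbol to 13292, several to 86 and none to 10638. Matching through RefSeq gene identifiers (ARS-UCD2.0 gene table) changed no symbol. Comparisons used limma 3.58.1 in R 4.3.3, fitting 1 mean for each group on all 12 arrays, eBayes with a trend of variance on mean, and Benjamini-Hochberg correction over 24016 probe sets. The procedure was tested on simulated data. Named were all probe sets of the 9 genes, called members of the 3 further lists, and the 3 most alike genes of each called gene. SCG3, SCG5, PCSK1N, CYB561, POMC and ECE2 were named outside this rule, after their values were seen. ADM and OPRM1, called only in comparisons between agents, were also named after their values were seen. Members and lists were chosen with earlier results of these data known. Alternatives were other fold minimums, eBayes without trend or robust, array weights, a filter on dim probe sets, 3 further normalizations, a block for the repeat number, a fit of the compared groups only, the mean of a gene's probe sets, and leaving out single arrays or the 3 with raised hypoxia genes. Plots were made in Python 3.11.15 using matplotlib 3.10.9.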

Additional observations from a re-analysis of the deposited data

How the results depend on the processing

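The number of the 9 genes called depended on the fold minimum. With no minimum it was 4 for IL6, 3 for IFNα and 6 for histamine against untreated, 5 for IL6 against IFNα and 6 for histamine against IL6. At 1.2-fold it was 2, 1, 2 and 5 for IL6, IFNα, IL6 against IFNα and histamine against IL6, and at 2-fold it was 0 in all 3 comparisons of histamine, where limma had called 3, 3 and 4. Leaving out single arrays gave 2 to 4 for histamine against untreated, 2 to 3 for histamine against IL6, 4 for histamine against IFNα, 0 for IL6 and IFNα against untreated and against each other, and 8 for the test over 4 groups. Same-numbered arrays of different groups did not deviate together throughout (correlation over 0.1 in 7 of 18 pairs, -0.07 to 0.60). They did so more often than differently numbered ones (3 of 36 pairs, -0.61 to 0.37), so pairing is not settled. The submitters call the repeats technical, and the numbers were not taken to pair samples. With the repeat number as a block the counts were 0, 0, 3, 0, 3, 4 and 8, and no call of the 9 genes changed. Over 1236 values of single genes under these alternatives (fold minimums apart), 1223 kept their side of the call, 8 lost it and 3 gained it. The other 2 changed direction, with an adjusted p under 0.05 before or after the change. Those were PENK and CHGB between histamine and IFNα under cyclic loess, at -0.0256 and -0.0738 (limma, adjusted p = 0.359 and 0.0162). Changes of sign where neither value passed were counted among the 1223, such as CHGA after histamine (-0.0667, up to 0.0183). The SCG2 difference after IFNα, under the fold minimum, passed the adjusted p in 12 of 23 alternatives (limma, adjusted p 0.000956 to 0.257). The 11 losses and gains concerned PTPRN and PCSK1 after histamine, PTPRN between histamine and IL6, and SCG2 between histamine and IFNα, which was 0.53 under cyclic loess. The filter on dim probe sets removed PCSK2. Signal near the top of the arrays may limit what PENK, CHGB, SCG2 and the brighter CHGA probe set could show, and low signal may limit PCSK2. Neither was tested.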
